A study of Mus musculus with 2 samples.

Results

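The genes described here encode proteins of neutrophil granules and calprotectin: Mpo, Elane, Prtn3 and Ctsg of the primary granules, Ltf, Camp and Ngp of the secondary granules, and S100a8 and S100a9, the subunits of calprotectin. They were taken by gene name from the array annotation, and the 9 genes, read by 11 probes, are among 22613 genes matched on the array, of which 12417 were measured well above background on both arrays. The samples were mouse macrophages of the genotype c-Maf-/- or c-Maf+/-, differentiated from bone marrow in culture. Both preparations had been grown for 5 days in M-CSF, supplied as CMG14-12 culture medium, and both were then treated with 100 ng/ml LPS, a bacterial outer membrane component, for 5 h. From 50 ng of total RNA, 1 one-colour array was hybridised per genotype. Without replicates the genotypes could not be tested, and the differences describe these 2 arrays. The comparison was with heterozygous cells, and neither a wild-type nor an unstimulated preparation was analysed here. The labels do not give the strain, the number of mice or how the allele was made. The labels do not say which stretch of the gene is deleted. c-Maf, encoded by Maf, is a transcription factor of macrophages and of other blood cells.

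Neutrophils form their granules in sequence as they mature in the marrow. Primary, or azurophil, granules appear first and carry myeloperoxidase and serine proteases, while secondary, or specific, granules follow and carry lactoferrin and cathelicidin. Calprotectin is a calcium- and metal-binding protein of the cytosol, abundant in neutrophils and monocytes and also inducible in macrophages. Marrow cultured in M-CSF starts with progenitors able to make granulocytes as well as macrophages.

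Of the 9 genes, 5 were at least 2-fold lower in c-Maf-/- cells (Ngp, Ltf, Prtn3, Mpo and S100a9) and 0 were at least 2-fold higher. Among all 12417 measured genes, 1.74% were at least 2-fold lower in c-Maf-/- cells and 1.43% were at least 2-fold higher. At a 1.5-fold threshold, added after the values were seen, 8 of the 9 genes were lower and 0 were higher, where 6.51% of all genes were lower and 5.37% were higher. The gene below both thresholds was Elane. The median log2 difference of the 9 genes, c-Maf-/- minus c-Maf+/-, was -1.01, beside -0.02 for all genes, whose differences had an SD of 0.41. The 9 genes were chosen with earlier results of these data known. Their contrast with all genes is therefore a description and not a test of enrichment. All RNA came from whole cultures, so fewer cells that carry these transcripts and less transcript per cell cannot be told apart.

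The arrays were of similar brightness. The 75th percentile signal of the non-control spots, which was used to scale the arrays, was 296 for c-Maf-/- cells and 291 for c-Maf+/- cells, and 0 spots were saturated. The 2 probes for Maf had signals of 12.6 and 5.96 on the c-Maf-/- array, where neither was well above background, against 15101 and 541 on the c-Maf+/- array, or at least 636-fold and at least 22.8-fold lower. Macrophage identity markers were measured for 25 of 26 genes, the exception being Cd163, and their signals summed to 1007350 for c-Maf-/- cells and 1040030 for c-Maf+/- cells. Each of the 11 probes for the granule and calprotectin genes was a single spot, was well above background on both arrays and carried no outlier flag. The error given after a signal is the scanner software's own estimate, and the error of a log2 difference was propagated from it. It does not include variation between cultures or mice.

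Of the 4 primary granule genes, Prtn3 and Mpo were more than 2-fold lower in c-Maf-/- cells, Ctsg was lower by less than 2-fold, and Elane had near-equal signal in both genotypes. Prtn3 encodes proteinase 3, a serine protease. The signal of Prtn3 was 48.4 ± 7.32 in c-Maf-/- cells, against 118 ± 12.8 in c-Maf+/- cells, a log2 difference of -1.31 (error 0.27) or 2.48-fold lower. These were dim spots, a range in which probes with repeated spots scattered most on these arrays. Elane encodes neutrophil elastase, whose gene lies next in line on chromosome 10, with the probes of Prtn3 and Elane 6.65 kb apart. Elane had a signal of 1844 ± 184 in c-Maf-/- cells and 1855 ± 186 in c-Maf+/- cells. Its log2 difference was -0.03 (error 0.20), so the 2 arrays differed by less than the scanner's error. The gap between Prtn3 and Elane in log2 difference was 1.28, beyond the combined error of 0.34.

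Mpo encodes myeloperoxidase, the heme enzyme that makes hypochlorous acid from hydrogen peroxide. It was read by 2 probes, and both were lower in c-Maf-/- cells. The first probe had 44.2 ± 7.01 in c-Maf-/- cells, against 109 ± 12.0 in c-Maf+/- cells, a log2 difference of -1.32 (error 0.28). The second probe had 483 ± 48.6 in c-Maf-/- cells, against 1012 ± 101 in c-Maf+/- cells, a log2 difference of -1.09 (error 0.20). The mean of both was -1.21 (SD over probes 0.16), or 2.31-fold lower, and the probes differed from each other by less than their combined error. Ctsg encodes cathepsin G, a serine protease with chymotrypsin-like activity. Ctsg had 439 ± 44.3 in c-Maf-/- cells, against 784 ± 78.6 in c-Maf+/- cells, a log2 difference of -0.86 (error 0.21) or 1.82-fold lower. With 2 of 4 genes past 2-fold, the median of these primary granule genes was -1.04.

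The probes that carry this contrast are shown so that the measured stretch of each transcript can be seen, in the transcript's sense and with build mm9 coordinates as the array annotation gives them. The Prtn3 probe is placed at chr10:79343869-79344685 on the plus strand, a span longer than the probe. The first Mpo probe is placed at chr11:87615121-87615180 and the second at chr11:87617840-87617899, both on the plus strand. The Elane probe is placed at chr10:79350902-79350961 on the plus strand, and its first 30 bases are printed. The Ctsg probe is placed at chr14:56718795-56718854 on the minus strand. Positions are given without exon or UTR annotation, since no gene models of build mm9 were used.
Prtn3: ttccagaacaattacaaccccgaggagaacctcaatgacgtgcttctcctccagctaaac
Mpo, first probe: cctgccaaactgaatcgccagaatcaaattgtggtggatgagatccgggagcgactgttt
Elane, first 30 bases: gctcccccctctaccagagacctctccatt

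**Figure D1:**
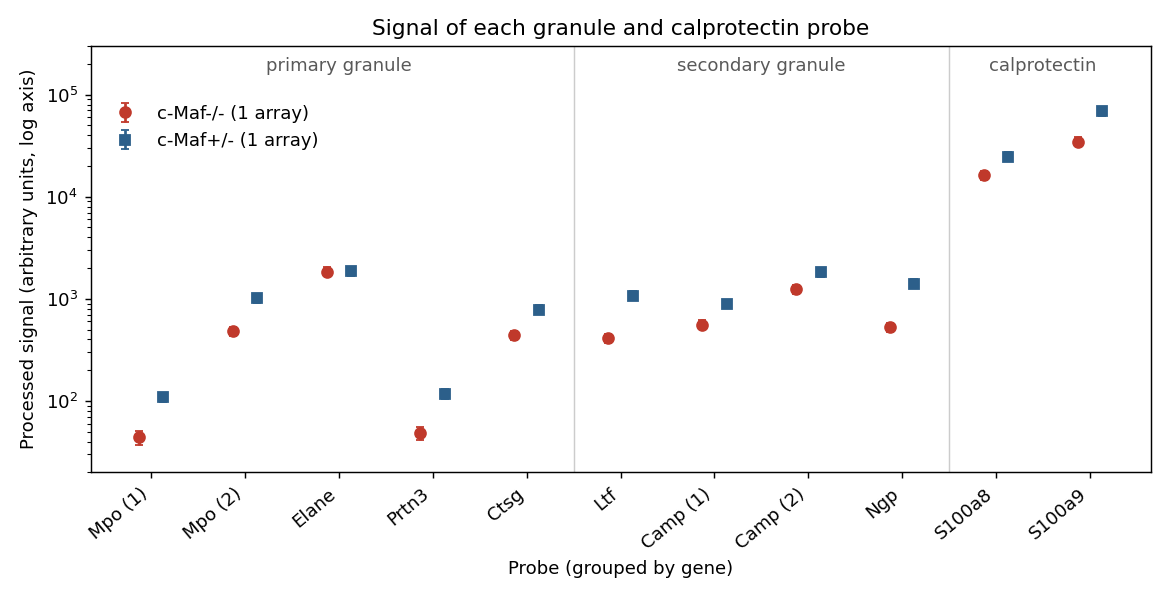
Background-subtracted spot signal on a log axis for each of the 11 probes, with c-Maf-/- left of c-Maf+/- and bars for the scanner software's error. The c-Maf-/- points lie lower, and 10 of the 11 differences exceed 2 propagated errors, the exception being Elane (1844 against 1855).

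The secondary granule genes Ngp and Ltf had the lowest differences of the 9 genes, and Camp was lower by less than 2-fold. Ngp encodes neutrophilic granule protein, a protein related to cathelicidins and cystatins. Ngp had a signal of 525 ± 52.8 in c-Maf-/- cells, against 1412 ± 141 in c-Maf+/- cells, a log2 difference of -1.45 (error 0.20) or 2.74-fold lower. Of all measured genes, 60 had a lower difference than Ngp. Ltf encodes lactoferrin, which binds iron. Ltf had 411 ± 41.5 in c-Maf-/- cells, against 1074 ± 107.5 in c-Maf+/- cells, a log2 difference of -1.41 (error 0.21) or 2.66-fold lower. For Ltf, 67 genes had a lower difference. Camp encodes the cathelicidin antimicrobial peptide and was read by 2 probes. The first had 558 ± 56.1 in c-Maf-/- cells, against 894 ± 89.5 in c-Maf+/- cells, a log2 difference of -0.70 (error 0.20). The second had 1248 ± 125 in c-Maf-/- cells, against 1814 ± 181 in c-Maf+/- cells, a log2 difference of -0.57 (error 0.20). The mean for Camp was -0.63 (SD over probes 0.10). With 2 of 3 genes past 2-fold, the median of these secondary granule genes was -1.41. Granule genes outside the 9 are not in this median and are given further below. Of 21 measured, 12 were below 0 and 9 above, with Lcn2 (0.36) and Mmp8 (0.46) among those above.

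All 3 of these secondary granule genes lie on chromosome 9, and Ngp and Ltf are shown as the genes with the lowest differences. The Ngp probe is placed at chr9:110324266-110324814 on the plus strand, also a span longer than the probe, and the Ltf probe at chr9:110942873-110942932 on the plus strand. The Camp probes are shown as a pair because they overlap and are not independent readings. The first is placed at chr9:109749901-109749950 and the second at chr9:109749911-109749970, both on the minus strand. They share 50 bases of sequence, offset by 10 bases, apart from 2 mismatches. Counted from 1 at the 5′ end of the shared stretch, with the base of the second probe first, these are A6G and T10C, and capitals mark them in the first 30 shared bases below. A match of at least 20 bases with a probe of another gene was found for 0 of the 11 probes.
Ngp: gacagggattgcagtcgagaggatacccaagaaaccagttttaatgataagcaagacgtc
Ltf: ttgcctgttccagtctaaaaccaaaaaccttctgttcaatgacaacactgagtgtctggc
Camp, first probe: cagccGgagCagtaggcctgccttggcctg
Camp, second probe: cagccAgagTagtaggcctgccttggcctg

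Both calprotectin genes were lower in c-Maf-/- cells, S100a9 by about the 2-fold threshold and S100a8 by less. S100a8 and S100a9 encode EF-hand calcium-binding proteins that pair as calprotectin, which binds zinc and manganese and signals through Tlr4 when released. S100a9 had a signal of 34671 ± 3467 in c-Maf-/- cells, against 68498 ± 6850 in c-Maf+/- cells, a log2 difference of -1.01 (error 0.20) or 2.01-fold lower. S100a8 had 16299 ± 1630 in c-Maf-/- cells, against 24689 ± 2469 in c-Maf+/- cells, a log2 difference of -0.62 (error 0.20) or 1.54-fold lower. The call for S100a9 stands at the edge of the threshold and was not made under 4 of 10 other ways of processing, in which its difference lay between -0.87 and -0.97. Of the remaining ways, no filter on dim probes, outliers kept and the brightest probe could not change its value. The probes lie 22.8 kb apart on chromosome 3, that of S100a9 at chr3:90496573-90496632 on the minus strand and that of S100a8 at chr3:90473778-90473837 on the plus strand. The S100a8 probe is shown as an example of the pair.
S100a8: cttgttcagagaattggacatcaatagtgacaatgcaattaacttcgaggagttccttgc

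Ranked by log2 difference the order was Ngp, Ltf, Prtn3, Mpo, S100a9, Ctsg, Camp, S100a8 and Elane, the lowest first. Of the 8 gaps between neighbours in this order, 7 were within the combined error of the pair, which ranged from 0.25 to 0.34. The gap from S100a8 to Elane, 0.59, was larger than its combined error of 0.29. Neighbours among the first 8 genes thus differ by less than the scanner software's error, whereas Elane differs from S100a8 by more. Repeated spots of single probes had median SDs below these combined errors, as given below. Signals of different probes are not on a common scale, so the levels of the genes were not ranked against each other. Among probes with at least 8 spots each, the median SD of the log2 difference was 0.20 over 43 probes with signals under 200, 0.08 over 82 probes with signals of 200 to 2000, and 0.04 over 90 brighter probes. Prtn3 and the first Mpo probe fall in the first range, where 3.06% of all genes were at least 2-fold lower and 3.06% were at least 2-fold higher. Ngp, Ltf, Ctsg, Elane, both Camp probes and the second Mpo probe fall in the middle range, where 1.41% of genes were at least 2-fold lower and 1.02% at least 2-fold higher. S100a8 and S100a9 fall in the brightest range, where the shares were 1.01% lower and 0.519% higher. Around the 11 spots, the median difference of the 200 nearest measured spots lay between -0.05 and 0.03. Such a median cannot show a fault at a single spot, and each of the 11 probes was a single spot.

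**Figure D2:**
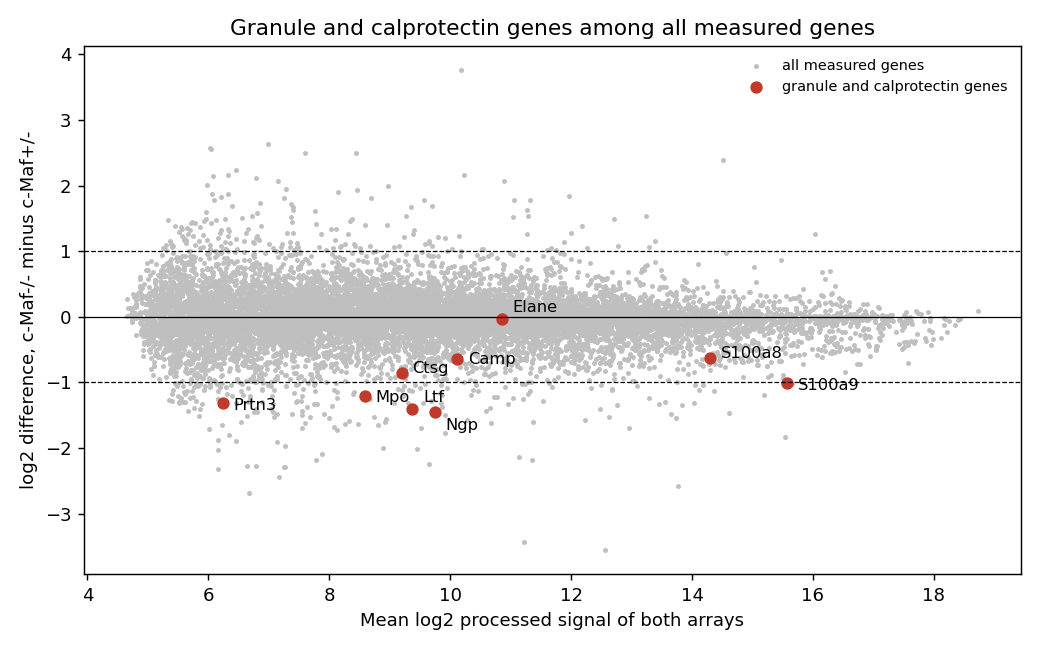
Log2 difference (c-Maf-/- minus c-Maf+/-) against mean log2 signal for the 12417 measured genes in grey, with the granule and calprotectin genes labelled and dashed lines at 2-fold. The labelled genes lie below 0 across the range of signals, from Ngp at -1.45 to Elane at -0.03, whose sign turned with 3 other settings.

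How far the counts rest on the handling of background was read from the settings plotted by gene. Ngp and Ltf were at least 2-fold lower under 10 of 10 alternatives, and came closest to 0 at -1.32 for Ngp and -1.27 for Ltf. Some alternatives could not change a member read by 1 probe: no filter on dim probes, outliers kept and the brightest probe. The same held for Mpo, except with the brightest probe. Those settings therefore add no weight to the counts given here. Prtn3 was -0.72 with a normexp background model and -0.88 without background subtraction, and Mpo was -0.82 and -0.90 under the same settings, so both were past 2-fold in 8 of 10. The sign of Elane was not fixed: its difference was 0.02 after quantile normalization, 0.10 after spike-in scaling and 0.01 relative to the local median.

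**Figure D3:**
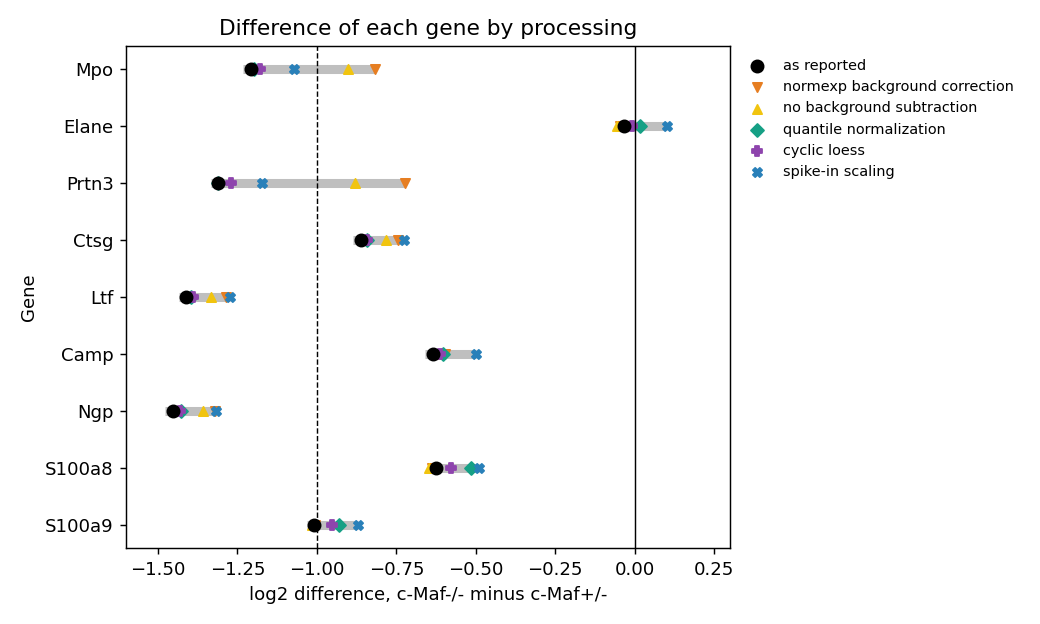
Log2 difference (c-Maf-/- minus c-Maf+/-) of each gene as reported and under 5 alternative ways of processing, with grey bars for the range over all alternatives and a dashed line at 2-fold lower. Ngp and Ltf stay below the line under each setting plotted, Prtn3 and Mpo cross it with 2 background settings, and Elane lies around 0.

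The 4 primary granule genes, whose differences ranged from -1.31 to -0.03, share the letters AGGAAGT in their upstream sequences. The 250 bases before each gene's start, from RefSeq on build GRCm38.p6, were searched on both strands for 6 short motifs, those of 5 factor families that act in myeloid cells and TATA, chosen with the sequences in view. AGGAAGT, a form of the site of ETS factors such as PU.1, was found in all 4 primary granule genes and in S100a8, against 7.69% of 32851 promoters. The shorter GGAA within it also occurs in Ngp, Ltf, Camp and S100a9, so the division depends on the letters chosen. It lies 94 to 88 bases before the start in Prtn3, 84 to 78 in Elane, 223 to 217 in Mpo and 206 to 200 in Ctsg. TGCTGA, the core that Maf factors bind, was found in Prtn3, Elane and Ctsg, against 16.1% of promoters. Elane held 3 copies of it, and Prtn3 and Ctsg held 1 each. At least 3 copies were found in 0.146% of promoters, a cut-off set by the count in Elane. CAACNG, bound by MYB factors, was found in Ngp, Prtn3, Elane and Ctsg, against 29.3% of promoters. TTNNGNAA, bound by C/EBP factors, was found in Ngp, Ltf, S100a8 and S100a9, against 36.8%. TGTGGT, bound by RUNX factors, was found in Ctsg and S100a9, against 14.05%. TATAA was found in Prtn3, Elane, Ctsg and S100a8, against 22.8%. It lies 32 to 28 bases before the start in Prtn3, 31 to 27 in Elane and 30 to 26 in S100a8. In Ctsg it lies far from the start, at 236 to 232 bases before it and on the other strand. Camp had no match to any of the 6 in this window. The letters are a description of the sequence, and binding was not measured. The promoters of the primary granule genes are shown because Elane differs from its neighbour Prtn3 in the data, and capitals mark AGGAAGT and TGCTGA on either strand. They lie at chr10:79879417-79879666 for Prtn3, chr10:79886062-79886311 for Elane and chr11:87793534-87793783 for Mpo on the plus strand, and at chr14:56102575-56102824 for Ctsg on the minus strand.
Prtn3: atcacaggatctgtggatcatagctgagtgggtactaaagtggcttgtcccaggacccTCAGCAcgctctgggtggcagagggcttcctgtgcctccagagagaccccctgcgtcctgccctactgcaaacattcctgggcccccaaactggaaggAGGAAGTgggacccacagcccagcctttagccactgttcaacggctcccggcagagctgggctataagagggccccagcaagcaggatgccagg
Elane: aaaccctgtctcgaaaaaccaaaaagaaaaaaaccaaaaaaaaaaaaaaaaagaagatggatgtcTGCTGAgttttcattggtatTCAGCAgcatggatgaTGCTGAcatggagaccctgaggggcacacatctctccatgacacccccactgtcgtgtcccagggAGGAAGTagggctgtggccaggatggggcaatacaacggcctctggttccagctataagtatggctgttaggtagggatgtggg
Mpo: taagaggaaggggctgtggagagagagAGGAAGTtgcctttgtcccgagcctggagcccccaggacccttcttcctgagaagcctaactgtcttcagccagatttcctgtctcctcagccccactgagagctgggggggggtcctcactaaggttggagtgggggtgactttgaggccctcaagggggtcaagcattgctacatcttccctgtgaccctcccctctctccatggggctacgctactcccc
Ctsg: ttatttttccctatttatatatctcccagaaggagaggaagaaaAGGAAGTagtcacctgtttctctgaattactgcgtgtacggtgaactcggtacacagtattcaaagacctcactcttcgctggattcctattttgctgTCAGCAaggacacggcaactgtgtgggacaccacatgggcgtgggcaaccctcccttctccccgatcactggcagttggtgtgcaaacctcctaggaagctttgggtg

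The genes listed here as other granule genes did not share 1 direction. The list is not specific to neutrophils: Hp is also among the monocyte markers below, and Lyz2 among the macrophage identity markers. Which cells of the cultures carried these transcripts was not tested. Of 28 such genes on the array, 21 were measured, 12 with a difference below 0 and 9 above, with a median of -0.29. Lcn2 and Mmp8, named here after their values were seen, were at 0.36 and 0.46. In c-Maf-/- cells, 4 of the genes were at least 2-fold lower and 3 at least 2-fold higher. With the c-Maf-/- signal set against the c-Maf+/- signal, the lower ones were Lrg1 (33.96 against 87.6), Ms4a3 (35.4 against 80.8), Serpinb1a (226 against 503) and Mmp25 (189 against 413). Serpinb1a inhibits elastase, proteinase 3 and cathepsin G, and Mmp25 is a membrane-bound metalloprotease. With c-Maf-/- again set against c-Maf+/-, the higher ones were Slpi (53910 against 10064), Arg1 (309 against 78.9) and Hp (105196 against 43224). Slpi, which inhibits elastase and cathepsin G, was 5.26-fold higher, while Ctsg and Elane were at -0.86 and -0.03. Pglyrp1, a peptidoglycan-binding granule protein, was well above background in c-Maf+/- cells only, with 19.8 in c-Maf-/- cells against 59.7 in c-Maf+/- cells, or at least 2.51-fold lower. Fcnb, a ficolin, had 13.7 in c-Maf-/- cells against 31.4 in c-Maf+/- cells, or at least 1.32-fold lower. Cd177, Olfm4, Bpi, Prss57 and Orm1 were not well above background on either array. Among 10 measured genes of serine protease activation and inhibition, 2 were at least 2-fold lower (Serpinb1a and Serpina3g, at -1.46) and 1 was at least 2-fold higher (Slpi), with a median of -0.32. Serpinb1c, Serpina3n and Wfdc2 were not well above background on either array.

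Markers of the cells that normally make these proteins were set beside them. Of 33 neutrophil lineage markers on the array, 26 were measured, 10 with a difference below 0 and 16 above, with a median of 0.24. Of these, 2 were at least 2-fold lower (Lrg1 and Asprv1, at -1.33) and 4 at least 2-fold higher (Mcemp1 at 1.78, Trem1 at 1.11, Wfdc21 at 1.07 and Trem3 at 1.05). Their summed signal was 172178 in c-Maf-/- cells and 147928 in c-Maf+/- cells, and such a sum is weighted to bright probes. Clec4d, the brightest, had 67386 in c-Maf-/- cells and 73359 in c-Maf+/- cells. Without it the other 25 summed to 104792 in c-Maf-/- cells and 74569 in c-Maf+/- cells. Retnlg, Cxcr1, Cxcr2, Stfa1, Cd177 and Itgb2l were not well above background on either array. Ly6g, named here after its value was seen, had 336 in c-Maf-/- cells against 465 in c-Maf+/- cells, a log2 difference of -0.50. This list shares 5 genes with the other granule genes. The part of these cells in the results above was not tested.

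Of 22 markers of granulocyte-monocyte progenitors, 16 were measured, with a median of -0.25 and a summed signal of 58493 in c-Maf-/- cells and 68432 in c-Maf+/- cells. Cd34, a surface marker of progenitors, was at least 2-fold lower with 267 in c-Maf-/- cells against 604 in c-Maf+/- cells, and so was Ms4a3, and 0 were at least 2-fold higher. Myb, a factor of immature progenitors, and Cpa3 were well above background in c-Maf+/- cells only. Myb had 31.2 in c-Maf-/- cells against 65.8 in c-Maf+/- cells, or at least 2.15-fold lower, and Cpa3 had 9.52 in c-Maf-/- cells against 80.8 in c-Maf+/- cells, or at least 3.40-fold lower. Gata2 was well above background in c-Maf-/- cells only, at least 1.32-fold higher. Kit, Prss57 and Sox4 were not well above background on either array. The part of progenitors in the results was likewise not tested. Of 16 measured transcription factors of granulopoiesis, Cebpa, which drives the granulocyte and monocyte programme, was at least 2-fold higher with 222 in c-Maf-/- cells against 101 in c-Maf+/- cells, and 0 were at least 2-fold lower. Myb, at least 2.15-fold lower as given above, is also on this list but is not among the 16 measured. The median of the 16 factors was -0.27, and Klf5 and Lef1 were not well above background on either array.

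Among the other S100 genes, 9 of 15 on the array were measured and 0 were past 2-fold in either direction, with a median of -0.09 and a range of -0.46 (S100a5) to 0.71 (S100a3). S100a8 and S100a9 both lay below this range. Of 8 measured receptors and signalling genes for calprotectin, 5 were below 0 and 3 above, with a median of -0.32. Cd69 was at least 2-fold lower (-1.48) and 0 were at least 2-fold higher, though 1 was with cyclic loess, spike-in scaling or the local median. Cd33 was at 0.98 and Tlr4 at -0.61, and Ager was not well above background on either array. Monocyte markers, all 14 measured, had 3 genes at least 2-fold higher (Cx3cr1, Hp and Ccr2) and 0 lower, with a median of 0.13. Their summed signal, 138560 in c-Maf-/- cells and 80031 in c-Maf+/- cells, rests on Hp, and without it the other 13 summed to 33364 in c-Maf-/- cells and 36807 in c-Maf+/- cells. Of the 25 macrophage identity markers, Mrc1 (-2.14) and Mertk (-1.91) were at least 2-fold lower and 0 were at least 2-fold higher. The 20 reference genes had a range of -0.23 to 0.24.

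**Figure D4:**
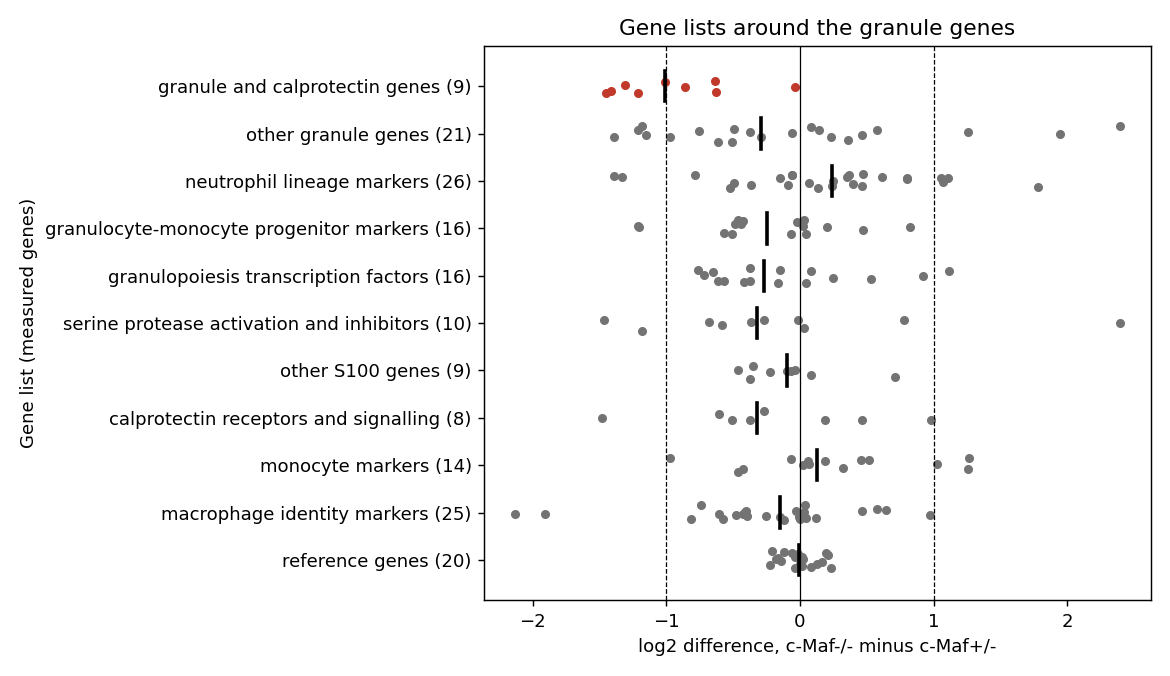
Log2 difference (c-Maf-/- minus c-Maf+/-) of each measured gene by list, with the median of each list marked and dashed lines at 2-fold. The granule and calprotectin genes have a median of -1.01, while the other granule genes and neutrophil lineage markers spread to both sides of 0 with medians of -0.29 and 0.24.

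None of the measured genes close to the members was past 2-fold as processed here. Of 117 measured genes within 500 kb of a member, 0 were past 2-fold in either direction, with a median of 0.02. Among all measured genes, 1.74% were at least 2-fold lower and 1.43% at least 2-fold higher. Genes well above background on 1 array only do not enter this count. Kif9, near Ngp, was at 0.97 as the mean of its measured probes and at 2.24 by its brightest probe. The median was 0.16 for 23 genes on chromosome 9 near Ngp, Ltf or Camp, 0.09 for 44 genes on chromosome 10 near Prtn3 and Elane, and -0.07 for 19 genes on chromosome 3 near S100a8 and S100a9. It was 0.04 for 10 genes near Mpo on chromosome 11 and -0.04 for 21 genes near Ctsg on chromosome 14. The granzyme genes, which encode the serine proteases of cytotoxic lymphocytes, are relatives of Ctsg. Gzma, Gzmb, Gzmc, Gzmd, Gzme, Gzmf, Gzmg and Gzmn were not well above background on either array. Gzmk had 258 in c-Maf-/- cells against 391 in c-Maf+/- cells, a log2 difference of -0.63, and Gzmm, named after its value was seen, was well above background in c-Maf+/- cells only, with 20.5 in c-Maf-/- cells against 35.3 in c-Maf+/- cells, or at least 1.49-fold lower.

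**Figure D5:**
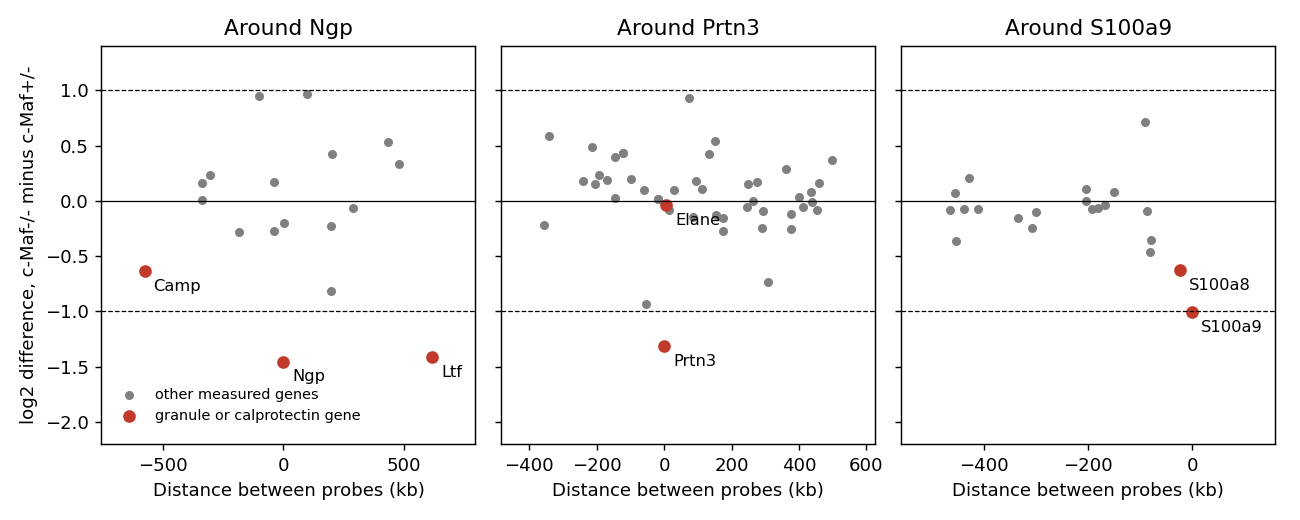
Log2 difference (c-Maf-/- minus c-Maf+/-) of measured genes by distance between probes in kb, in windows around Ngp, Prtn3 and S100a9, with members in red and dashed lines at 2-fold. The other genes lie between -0.94 and 0.97, and Elane lies among them while Prtn3, 6.65 kb away, lies at -1.31.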

How the data were processed

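Bone marrow-derived macrophages of 2 genotypes were measured on 1 Agilent one-colour array each. The deposited spot intensities came from Agilent Feature Extraction 10.7.3.1 (protocol GE1_107_Sep09, design 028005), per the file headers. Processed signals are background-subtracted with spatial detrending and not normalized between arrays. With 1 array per genotype, any effect of slide or of position on a slide cannot be told apart from genotype.

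Here log2 of the deposited processed intensities, minus each array's 75th percentile over non-control spots, was used. Outlier spots were dropped, spots of a probe averaged, and genes averaged over probes that were well above background on both arrays. Where only 1 array passed, the gene was given a bound against the lowest signal well above background (24.2 for c-Maf-/-, 22.3 for c-Maf+/-) or the dim probe's own signal, if higher. Of the non-control probes, 23867 had no match in the RefSeq gene table and were left out of the counts. Distances use mm9 probe positions.

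Calls were made at 2-fold, lower or higher, without a p-value. The number of arrays limits the precision. The members, lists, motifs and thresholds were chosen with earlier results of these data known. The members and Maf are named whatever their values. From each other list the text may name genes past 2-fold, the 3 farthest from 0 and those not well above background on either array. Alternatives were normexp (offset 50), no background subtraction, quantile, cyclic loess, spike-in and median scaling, no filter on dim probes, outliers kept, the brightest probe, and, added after seeing the data, a 1.5-fold threshold and the median of the 200 nearest spots. R 4.3.3 with limma 3.58.1 and Python 3.11.15 were used, and the counting was tested on simulated data.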

Additional observations from a re-analysis of the deposited data

How the results depend on the processing

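Of the 5 members at least 2-fold lower, 3 (Ngp, Ltf and S100a9) were past the threshold with normexp and 3 without background subtraction, and 8 members were past 1.5-fold, a threshold chosen after seeing the data. The median member difference of -1.01 became -0.74 with normexp, -0.88 without background subtraction, -0.93 after quantile normalization and -0.87 after spike-in scaling. The 26 genes of other lists past 2-fold became 13 with normexp and 16 without background subtraction. The 0 genes near members past 2-fold became 1 with cyclic loess, 3 with spike-in scaling, 1 without the filter on dim probes and 1 with the brightest probe. Over all genes, 216 were lower and 177 higher. The counts were 109 lower and 68 higher with normexp, 124 lower and 82 higher without background subtraction, 871 lower and 885 higher without the filter, and 142 lower and 262 higher with spike-in scaling, which placed the median of all genes at 0.11. With normexp, 0 other granule genes and 0 neutrophil lineage markers were at least 2-fold lower. Without background subtraction these were 1 and 0, beside 4 and 2 as reported, and progenitor markers were 1 under each, beside 2. Cebpa was within 2-fold under both. The 4 neutrophil lineage markers at least 2-fold higher were 2 with normexp, the 2 eosinophil genes at least 2-fold higher were 0 with normexp and 1 without background subtraction, and the 2 lower serine protease genes were 1 with normexp. The 3 lower dendritic cell markers were 1 under each of normexp, no background subtraction and spike-in scaling. With 0 as reported, 1 macrophage identity marker was at least 2-fold higher after quantile normalization, spike-in scaling or against the local median. The cause was not tested. Of the values of single genes and single lists under an alternative, 577 moved by less than the spread or 1.5 times and 113 by more. The 577 include settings that could not change a member read by 1 unflagged probe above background. The difference of Elane, near 0, was 0.02 with quantile, 0.10 with spike-in scaling and 0.01 against the local median. No paired analysis was possible because each genotype had 1 array. Dim probes, such as that of Prtn3 and the first of Mpo, carry the largest scanner errors, and 1 array per genotype gives no estimate of variation between cultures or mice.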

Other observations

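Lists of other granule-bearing or marrow cells differed in how many genes were measured. Of 10 eosinophil genes on the array, for granule proteins and surface receptors, 6 were measured. Siglecf (195 in c-Maf-/- cells against 64.0 in c-Maf+/- cells) and Ear2 (191 against 86.8) were at least 2-fold higher. Ccr3 (104 against 463) was at least 2-fold lower. Ear1 was well above background in c-Maf-/- cells only, at least 1.99-fold higher, and Epx, Prg3 and Il5ra were not well above background on either array. Of 14 mast cell and basophil genes, 3 were measured and 0 were past 2-fold. Tpsab1, Cma1, Mcpt1, Mcpt2, Mcpt4, Mcpt8, Fcer1a, Ms4a2 and Kit were not well above background on either array. Of 12 cytotoxic granule genes, 3 were measured and 0 were past 2-fold. Erythroid and megakaryocyte markers, with 9 of 14 measured, had a median difference of 0.53 and 0 past 2-fold, and lymphocyte markers, with 6 of 13 measured, had a median of -0.09 and 0 past 2-fold. Of 9 measured dendritic cell markers, 3 were at least 2-fold lower in c-Maf-/- cells: Fscn1 (112 against 312 in c-Maf+/- cells), Itgax (131 against 275) and Bcl11a (51.7 against 104), whose 2 measured probes had differences with an SD of 0.79.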
